A study of Mus musculus with 6 samples.

Results

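The Hox genes are the subject of this account, taken as every gene whose single symbol in the platform annotation is Hoxa, Hoxb, Hoxc or Hoxd followed by a number. There were 37 members among 19938 genes with a single symbol: 10 in the Hoxa cluster, 9 in Hoxb, 9 in Hoxc and 9 in Hoxd. Hoxb8 was not analysed here, because its probe set also carries the symbol Hoxb7. Each member was measured by 1 probe set. The study set aortas of 3 Trail knockout mice against aortas of 3 wild-type mice, all 6 weeks old and of strain C57Bl6/J per the labels, and the knockout line came from Amgen. Trail is the death ligand encoded by Tnfsf10. The 6 samples were hybridised to one-colour arrays, and signals are given on the log2 scale, where 1 unit is a 2-fold difference. The labels do not say whether an array held 1 animal or several, or which part of the aorta was taken.

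Hox proteins are homeodomain transcription factors that give cells along the head-to-tail axis their regional identity. In each cluster the genes lie along the chromosome in the order of their paralogue numbers, and low numbers are switched on nearer the head and earlier than high numbers. Adult smooth muscle cells and fibroblasts keep much of the Hox pattern of the body level they came from, so a Hox profile depends on where a tissue was taken and on which cells it holds. Paralogues 1 to 3 are called anterior here, 4 to 8 central and 9 to 13 posterior.

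The deleted gene and the tissue content of the arrays come first. Tnfsf10 gave 5.02, 4.48 and 4.09 on knockout arrays 1, 2 and 3, and 8.42, 4.90 and 4.85 on wild-type arrays 1, 2 and 3, so the array labelled wild type 1 alone stood above all 3 knockout arrays, and whether the probe set lies in the deleted part is not known. That array also stood apart across all genes, with a Pearson r over genes, which are not independent replicates, of 0.880 to 0.891 with the other 5 arrays, against 0.967 to 0.996 among those 5. Its median over 16 skeletal muscle markers was 5.70, against 10.60 to 11.44 on the other 5 arrays, and its median over 14 squamous epithelium markers was 5.20, against 10.98 to 11.32. White fat markers had a median of 11.08 there and 6.68 to 8.33 elsewhere, and brown fat markers 9.69 there and 6.09 to 6.35 elsewhere. Stomach epithelium markers had a median of 12.11 on knockout 2, 6.79 on wild type 3 and 4.81 to 5.35 on the other 4, and lung epithelium markers had 7.11 on knockout 1 and 5.11 to 5.45 elsewhere. Vascular smooth muscle markers, which define the labelled tissue, had a median of 9.50 on wild type 1 and 9.94 to 10.78 elsewhere. Of these 11 genes, Des and Actg2 were 7.86 and 8.03 on wild type 1, against 11.18 to 11.62 and 10.67 to 11.39 elsewhere. Eln was 10.31 there, against 8.60 to 8.96, and Cnn1 9.57, against 9.94 to 10.78. Acta2, Tagln and Myh11 were 12.62, 11.09 and 11.35 there, against 12.27 to 12.63, 10.80 to 11.41 and 11.21 to 12.02. These values, and those of Mylk and Lmod1, lay inside the range of the other arrays. Smtn and Myocd were highest on wild type 1, at 9.12 and 7.24, so the lower median was not shared by all genes of the list. In whole-tissue RNA, fewer cells of a type and less RNA per cell cannot be told apart.

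The Hox clusters also hold microRNA genes, and 5 mature sequences are shown because they mark the paralogous relation between clusters and because the array has probe sets for their genes. The sequences are from RefSeq (GRCm38.p6), 5′ to 3′, with the seed, bases 2 to 8, in capitals.
miR-10a-5p, Hoxb cluster, chr11:96317186-96317208, plus strand: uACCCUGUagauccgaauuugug
miR-10b-5p, Hoxd cluster, chr2:74726074-74726096, plus strand: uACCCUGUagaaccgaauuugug
miR-196a-5p, Hoxb and Hoxc clusters, with the Hoxb copy at chr11:96265187-96265208, plus strand: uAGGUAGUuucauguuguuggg
miR-196b-5p, Hoxa cluster, chr6:52230129-52230150, minus strand: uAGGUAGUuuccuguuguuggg
miR-615-3p, Hoxc cluster, chr15:103014969-103014990, plus strand: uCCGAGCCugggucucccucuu
Counted from the 5′ end, miR-10b-5p differs from miR-10a-5p by U12A and miR-196b-5p from miR-196a-5p by A12C, both outside the seed, while miR-615-3p has a seed of its own. In mice and other vertebrates, miR-196 is known to pair with Hox transcripts, Hoxb8 among them.

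Central members were more often bright on this array than anterior or posterior ones. The test between genotypes used only probe sets outside the dimmest 40%, which lie under a mean of 5.90. Above this line were 11881 of all 19938 genes and 15 of 37 members. The 15 were 3 of 7 anterior, 11 of 14 central and 1 of 16 posterior members. The last was Hoxd9 at a mean of 5.93, the member just inside the line. Hoxb4 at 5.81 was just outside it. Levels of different probe sets depend on their probes and cannot be ranked, so these counts say which members were bright on this array, not which were most transcribed. Mean signals over the 6 arrays ran from 4.46 to 5.93 for posterior members, the genes of the lumbar, sacral and tail regions and of the distal limb in mouse embryos. They ran from 5.58 to 7.59 for central members, which pattern the neck and thorax, and from 5.26 to 6.54 for anterior members, which act in the hindbrain and pharyngeal arches.

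**Figure D1:**
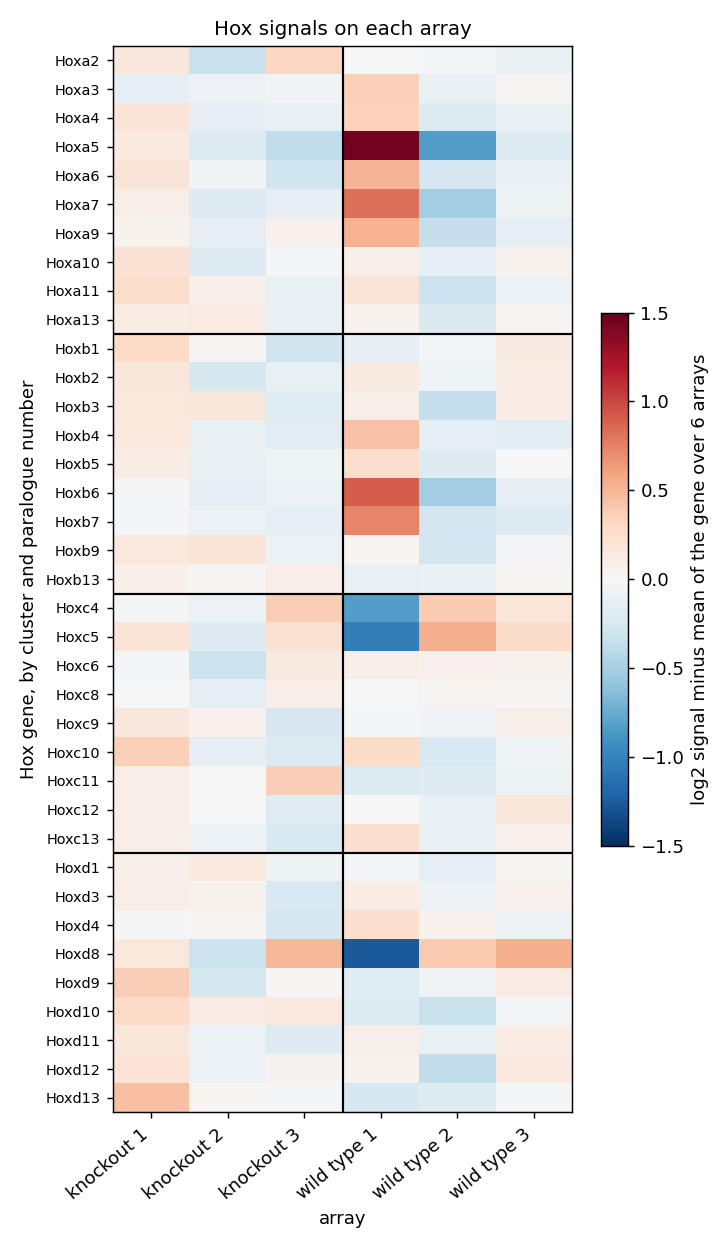
Log2 signal of each of 37 Hox genes (rows, by cluster and paralogue number) on each array (columns, knockout left, wild type right), minus the gene's mean over the 6 arrays. Most strong colours lie in the column of wild type 1 and in central rows, red for Hoxa5, Hoxa7, Hoxb6 and Hoxb7 and blue for Hoxc4, Hoxc5 and Hoxd8. Hoxa5 on wild type 2 is also strongly blue, at -0.84.

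Central Hox genes had a median range over the 6 arrays of 0.92, against 0.49 for anterior members, 0.52 for posterior members and 0.51 for all genes. Without wild type 1 these medians were 0.47, 0.41, 0.44 and 0.37, so the wider central range rested on that array. The range over the 6 arrays exceeded 1 log2 unit for 7 of 37 members (18.9%), all of them central, and the same held for 19.2% of all genes, so this share was near the background. Without wild type 1 no member had a range above 1, against 4.16% of all genes. The 7 members divided by cluster. On wild type 1, Hoxa5, Hoxa7, Hoxb6 and Hoxb7 were more than 1.5-fold above every other array, and Hoxc4, Hoxc5 and Hoxd8 were more than 1.5-fold below every other array. With 64 added to the linear signals these counts of 4 and 3 became 1 and 0, while all 7 stayed the highest or lowest on that array. As shares of the members these counts are 10.8% and 8.11%, against 9.24% and 7.32% of all genes on that array. All 7 lie above the filter line, where they were 26.7% and 20% of 15 members, against 12.9% and 11.8% of all genes above it. The line was drawn on the mean of all 6 arrays, so the bright shares depend in part on the wild type 1 values they describe. Hoxa7, at a mean of 5.82 on the other 5 arrays, was above the line of 5.90 only through wild type 1. The members' shares were thus near the background over all 37. Their higher shares among the bright members were partly built in by the line and were not tested. Wild type 1 was the highest array for 13 members (35.1%, against 33.4% of all genes) and the lowest for 6 (16.2%, against 24.6%). At 2-fold, Hoxa5 alone was above all others (2.7% of members, against 4.73% of genes), and 0 members were below all others (against 4.74%). On the other 5 arrays, 0 members were more than 2-fold above or below every other array, where the share of all genes was 1.26% above and 0.00502% below on knockout 2, 0.0953% above on knockout 1, and 0.01% or 0% otherwise.

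Hoxa5, which in mice is needed for the lung, the trachea and the cervical to thoracic vertebrae, had the widest range of all members. Its signal was 7.34, 6.99 and 6.83 on knockout arrays 1, 2 and 3, and 8.65, 6.35 and 7.00 on wild-type arrays 1, 2 and 3. Wild type 1 was 2.47-fold above the next array, knockout 1, and the knockout values lay inside the span of the wild-type values. Of 10 white fat markers 9 exceeded every other array by over 2-fold on wild type 1. The list had medians of 8.33, 8.30 and 7.24 on the knockout arrays and 11.08, 6.68 and 7.21 on the wild-type arrays. Both Hoxa5 and that list were lowest on wild type 2, while the brown fat median was 6.10 there and 6.09 on wild type 3. Of the 5 arrays other than wild type 1, wild type 2 was the lowest for 18 of 37 members and 25.3% of all genes. Endothelial markers were also up on wild type 1, with a median of 8.73 there and 7.12 to 7.83 elsewhere and 5 of 11 over 2-fold beyond the rest. Fibroblast markers had a median of 9.21 there and 10.08 to 10.48 elsewhere, but were mixed. Of these 10 genes 4 were over 1.5-fold below the rest on wild type 1. Col1a1 and Col1a2 lay inside the range of the other arrays, and Pi16 was highest there, at 7.52. The part of these cell types in the Hox values was not tested.

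Its neighbour Hoxa7 had the same high array. Its signal was 6.07, 5.79 and 5.87 on the knockout arrays, and 6.82, 5.47 and 5.91 on the wild-type arrays, with wild type 1 at 1.68-fold above the next. Hoxa6, between them, was also highest on wild type 1, at 6.09 against 5.27 to 5.77 elsewhere, as was Hoxa9, at 5.19 against 4.33 to 4.73. In the Hoxa cluster, 6 of 10 members were highest on wild type 1 and 0 were lowest there. Hoxa10, Hoxa11 and Hoxa13 at the posterior end were 0.10, 0.23 and 0.07 above the mean of the other 5 arrays, within the range of those arrays.

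The same stretch of the Hoxb cluster was high on wild type 1. Hoxb6 gave 6.13, 6.01 and 6.07 on the knockout arrays, and 7.06, 5.63 and 6.02 on the wild-type arrays. Hoxb7 gave 6.32, 6.24 and 6.19 on the knockout arrays, and 7.06, 6.04 and 6.14 on the wild-type arrays. For both genes wild type 1 was the high array, by 1.91-fold and 1.68-fold over the next, and wild type 2 was the low one. Hoxb4 and Hoxb5 were also highest on wild type 1, by less. Hoxb4 was 6.25 there against 5.63 to 5.95 elsewhere, and Hoxb5 6.86 against 6.41 to 6.71. A second probe set that carries the Hoxb7 symbol beside that of Hoxb8 was not used. Hoxb1, Hoxb2 and Hoxb3, known for their part in the hindbrain, differed on wild type 1 from the mean of the other 5 by -0.15, 0.17 and 0.11, and Hoxb9 and Hoxb13 by 0.03 and -0.14.

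**Figure D2:**
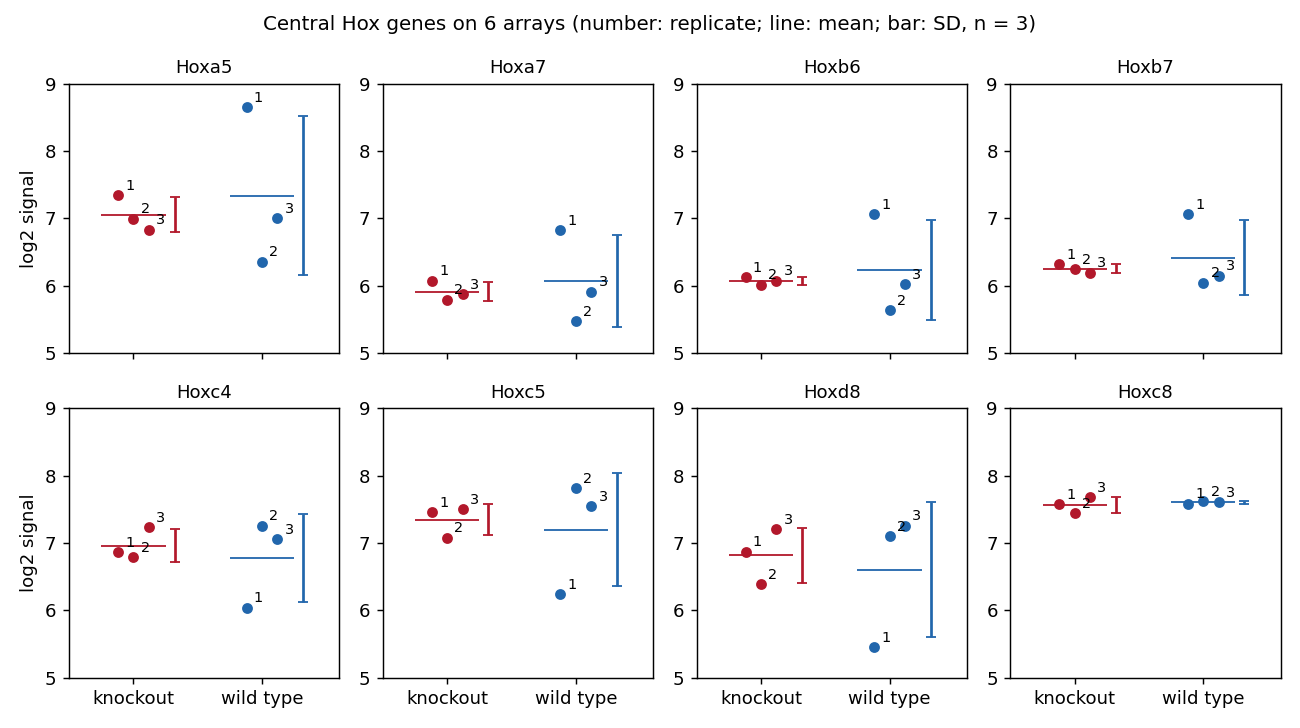
Log2 signal (y axis) of 8 central Hox genes in knockout (left) and wild-type (right) arrays, with the replicate number at each point, the mean as a line and the SD as a bar (n = 3). Wild type 1 lies above all other arrays for Hoxa5, Hoxa7, Hoxb6 and Hoxb7 and below them for Hoxc4, Hoxc5 and Hoxd8, while Hoxc8 lies between 7.44 and 7.68 on all arrays.

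The anterior end of the measured Hoxc cluster went the other way. Hoxc5 gave 7.46, 7.08 and 7.50 on the knockout arrays, and 6.24, 7.82 and 7.55 on the wild-type arrays. Hoxc4 gave 6.86, 6.79 and 7.24 on the knockout arrays, and 6.04, 7.26 and 7.06 on the wild-type arrays. Wild type 1 was the low array for both, by 1.79-fold and 1.68-fold under the next. The neighbours Hoxc6 and Hoxc8 did not share this: Hoxc6 was 6.82 on wild type 1 and 6.40 to 6.86 elsewhere, and Hoxc8 was 7.58 there and 7.44 to 7.68 elsewhere. Hoxc6 and Hoxc8 are among the genes that set motor neuron identity at forelimb level in mouse and chick embryos. Hoxc8 had a range of 0.24 over the 6 arrays, against a median range of 0.51 over all genes.

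In the Hoxd cluster a single gene stood out. Hoxd8 gave 6.87, 6.39 and 7.21 on the knockout arrays, and 5.45, 7.11 and 7.26 on the wild-type arrays. Wild type 1 was 1.92-fold under the next lowest array, knockout 2. The remaining 8 Hoxd members differed on wild type 1 from the mean of the other 5 arrays by -0.28 to 0.31, with Hoxd9, the next gene along, at -0.22. Members of the same paralogue number differed in direction: Hoxa5 and Hoxc5 went in opposite directions, and Hoxb5 differed by 0.32.

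**Figure D3:**
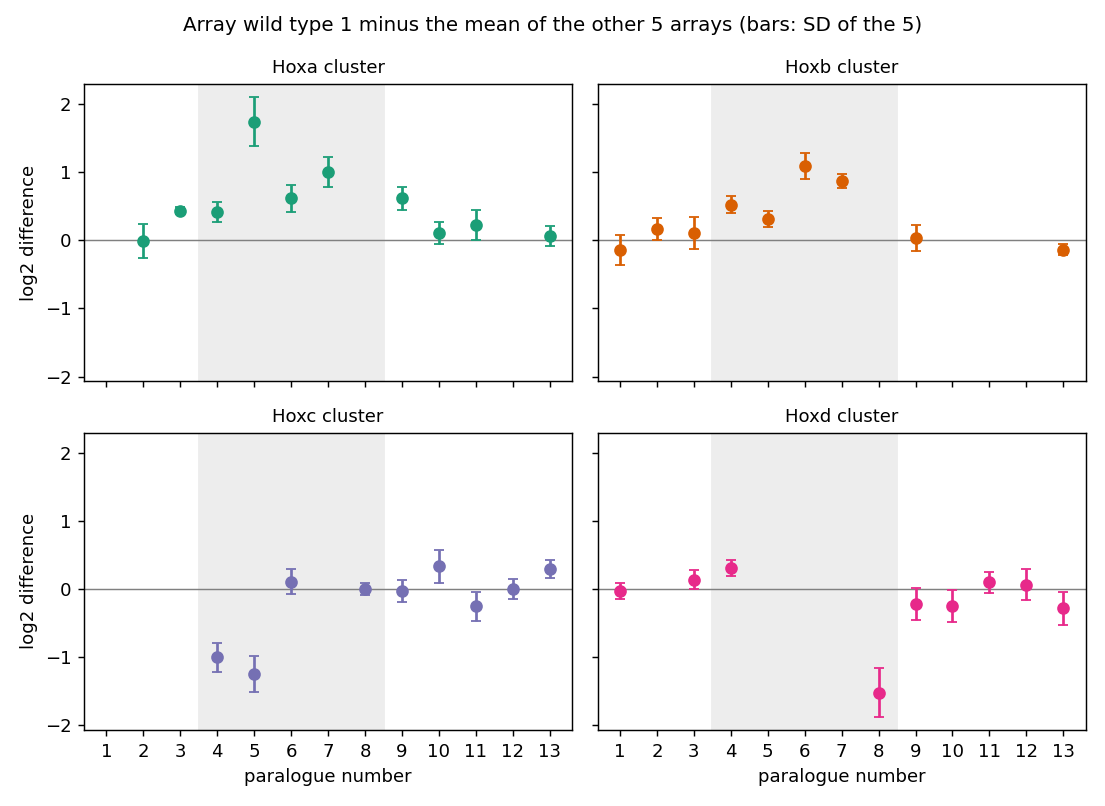
Difference in log2 signal between the array labelled wild type 1 and the mean of the other 5 arrays (y axis) for each Hox gene by paralogue number (x axis), 1 panel per cluster, with the SD of the 5 arrays as bars and the central paralogues shaded. The largest positive values are Hoxa5 at 1.74 and Hoxb6 at 1.09, the largest negative ones Hoxd8 at -1.52 and Hoxc5 at -1.24, and posterior members stay between -0.28 and 0.62.

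The promoters of Hoxa5 and Hoxd8 are shown because these genes had the largest shifts in each direction. RefSeq promoters (GRCm38.p6), from 250 bases before to 50 after the gene start, were found for 21 of 37 members. Both strands were searched for the Hox-Pbx site TGATNNAT. The half-site of retinoic acid receptors, AGGTCA, was searched in the same way. The last motif was the TATA box TATAAA. Matches are in capitals.
Hoxa5, chr6:52204538-52204837, minus strand: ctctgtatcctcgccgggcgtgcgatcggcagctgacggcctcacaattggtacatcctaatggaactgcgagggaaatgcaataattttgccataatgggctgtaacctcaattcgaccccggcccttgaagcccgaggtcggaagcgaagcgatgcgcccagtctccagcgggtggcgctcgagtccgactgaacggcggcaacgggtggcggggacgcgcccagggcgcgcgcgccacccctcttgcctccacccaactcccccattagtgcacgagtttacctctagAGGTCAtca
Hoxd8, chr2:74704365-74704664, plus strand: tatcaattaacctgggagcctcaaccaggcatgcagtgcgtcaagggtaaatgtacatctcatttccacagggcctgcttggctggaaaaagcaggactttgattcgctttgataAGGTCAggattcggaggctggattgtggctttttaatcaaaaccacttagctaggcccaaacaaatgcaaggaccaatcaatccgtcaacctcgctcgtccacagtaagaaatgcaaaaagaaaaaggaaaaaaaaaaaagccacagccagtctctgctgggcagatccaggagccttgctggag
Each holds 1 AGGTCA, which begins 42 bases after the start in Hoxa5 and at -135 in Hoxd8, and neither holds the other motifs, which says only that these letters are not in this window. AGGTCA was in 7 of 23 promoters of these 21 members (30.4%) and in 16.3% of 32851 mouse promoters. The Hox-Pbx site was in 13% and 8.85%, and the TATA box in 13% and 13.6%. No match overlaps another in these 2 promoters. The ratio of observed to expected CpG was 1.02 in Hoxa5 and 0.367 in Hoxd8, against a median of 0.596 over Hox promoters and 0.384 over all promoters. A match is a run of letters and not evidence of binding.

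Among the 5 arrays other than wild type 1 the Hox differences were smaller and had a different shape. Knockout 1 was the highest of the 5 for 21 of 37 members (56.8%) and wild type 2 the lowest for 18 of 37 (48.6%). The same held for 33.8% and 25.3% of all genes, and for 51% and 40.6% of genes under the filter line, where 22 of the 37 members lie. Knockout 2 was the lowest of the 5 for 9 of 37 members, no larger a share than the 28.8% of all genes. Among the 9 were Hoxc4, Hoxc5, Hoxc6, Hoxc8 and Hoxd8. The share was 18.7% of genes under the line, but these named members lie above it, where the share was not computed. Knockout 2 carried the stomach genes and had the lowest skeletal muscle median of the 5, 10.60. The part of stomach and muscle in these Hox values was not tested.

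**Figure D4:**
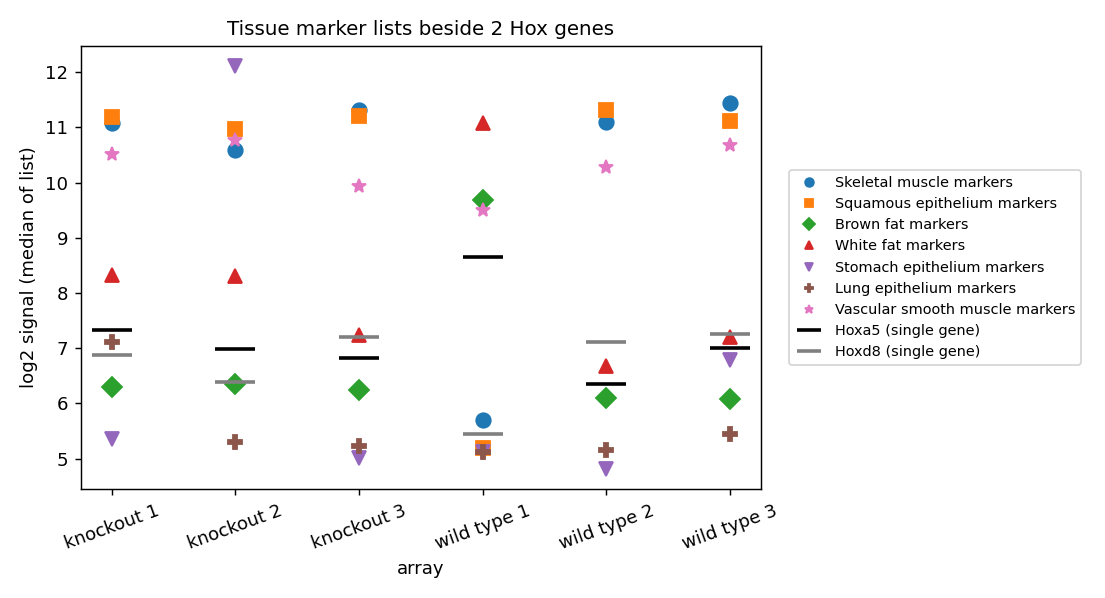
Median log2 signal of 7 tissue marker lists (symbols) on each array, knockout left and wild type right, beside the log2 signal of the single genes Hoxa5 and Hoxd8 (short lines). Wild type 1 has low muscle and squamous medians of 5.70 and 5.20, a white fat median of 11.08, the highest Hoxa5 value of 8.65 and the lowest Hoxd8 value of 5.45.

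Between the genotypes no Hox gene passed the test. In limma, 0 of 15 tested members passed at an adjusted p of 0.05, as did 0% of 13073 probe sets. At an unadjusted p of 0.05 the count was 0 members, against 83 probe sets (0.635%). The lowest adjusted p of a member was 0.911, and differences of the 37 members ran from -0.28 to 0.37. Signals were higher in the knockout for 17 members (45.9%) and for 49.8% of all genes. The median Hox difference was -0.01, and that over all genes was 0.00. Without wild type 1, 23 members were higher (62.2%, against 53.1% of all genes), the median was 0.10 against 0.01, and 0 of 15 tested members passed in limma with a lowest adjusted p of 0.997, against 0% of probe sets (1.42% at an unadjusted p of 0.05). The sign of the difference turned for 14 of 37 members when wild type 1 was left out.

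The 7 genes that set wild type 1 apart were among those 14. They were picked for their values on that array, so the direction of their shift without it was fixed by the choice. Hoxa5 averaged 7.05 ± 0.26 in the knockout and 7.33 ± 1.18 in the wild type (SD, n = 3 each), a difference of -0.28 (SE 0.59, 95% interval -1.73 to 1.17, limma adjusted p = 0.925). Without wild type 1 it was 0.38 (95% interval -0.18 to 0.93). Hoxd8 averaged 6.82 ± 0.41 in the knockout and 6.60 ± 1.00 in the wild type (SD, n = 3 each), a difference of 0.22 (95% interval -1.09 to 1.52), and -0.36 (95% interval -0.92 to 0.20) without wild type 1. Hoxc5 differed by 0.15 (95% interval -0.91 to 1.21), and by -0.33 (95% interval -0.74 to 0.07) without that array. Without it the groups no longer overlapped for Hoxc5, lower in the knockout, and for Hoxb7, higher in the knockout, which with Hoxd10 and Hoxc11 makes 4 of 37 members (10.8%), against 13.8% of all genes. Hoxc4, Hoxa7, Hoxb6 and Hoxb7 differed by 0.18, -0.16, -0.17 and -0.17 on 6 arrays and by -0.20, 0.22, 0.25 and 0.16 without wild type 1. On 5 arrays the intervals of Hoxa5, Hoxd8 and Hoxc5 reach beyond a 1.5-fold change in at least 1 direction. So do those of Hoxa7 (to 0.65), Hoxb6 (to 0.62) and Hoxc4 (to -0.59), so a change of that size was not excluded. The interval of Hoxb7 was -0.13 to 0.45 on 5 arrays and -0.87 to 0.54 on 6.

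Posterior genes gave the lowest p-values, all at dim signals. Hoxd10, one of the paralogues that suppress ribs in the lumbar region of the mouse, gave 5.72, 5.56 and 5.58 on the knockout arrays, and 5.24, 5.11 and 5.42 on the wild-type arrays. Hoxc11, a gene of the sacral and hindlimb region, gave 4.95, 4.85 and 5.22 on the knockout arrays, and 4.64, 4.66 and 4.77 on the wild-type arrays. Every knockout array was above every wild-type array for both, by a mean of 0.37 (SE 0.12, 95% interval 0.07 to 0.66) for Hoxd10 and 0.32 (SE 0.12, 95% interval 0.02 to 0.62) for Hoxc11. Neither passes the filter, and in the limma fit without it both had an adjusted p = 0.946. Groups did not overlap for these 2 of 37 members (5.41%), both higher in the knockout, as for 6.31% of all genes in either direction and 2.81% in this one. Both lie under the filter line, where they were 9.09% of 22 members, against 7.04% of genes in either direction and 5.01% in this one. Without the filter 2 members (5.41%), again Hoxd10 and Hoxc11, had an unadjusted p under 0.05, against 1.25% of 21789 probe sets. In the fit above the filter line the share was 0.635%, and the share among dim probe sets alone was not computed. Without wild type 1 the differences were 0.36 (95% interval -0.00 to 0.71) and 0.29 (95% interval -0.07 to 0.65). Lung markers were high on knockout 1, and stomach markers on knockout 2 and wild type 3, and their part in these values was not tested.

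**Figure D5:**
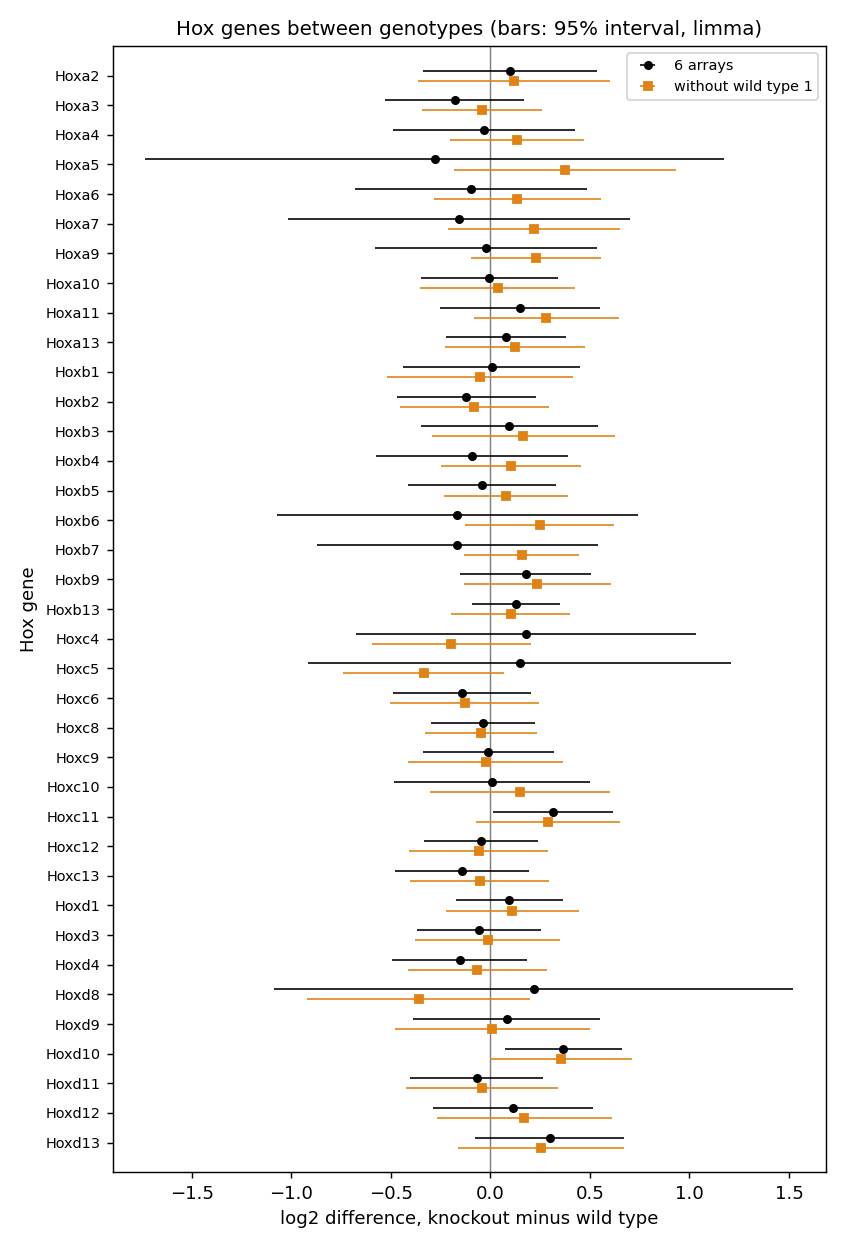
Log2 difference, knockout minus wild type (x axis), of 37 Hox genes (y axis) on 6 arrays (circles) and without wild type 1 (squares), with 95% intervals from limma. The intervals of Hoxa5, Hoxd8, Hoxc5, Hoxb6 and Hoxa7 are wide on 6 arrays, and the Hoxd10 and Hoxc11 circles lie above 0 at 0.37 and 0.32.

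Hoxd13, Hoxb9 and Hoxb13 came next by p. Hoxd13, which shapes digits and the hindgut end, differed by 0.30 (95% interval -0.08 to 0.67), with 5.26, 4.84 and 4.78 on the knockout arrays, and 4.57, 4.62 and 4.79 on the wild-type arrays. Hoxb9 differed by 0.18 and Hoxb13 by 0.13, each with groups that overlapped and an adjusted p = 0.946 in the limma fit without the filter. Of 16 posterior members, 10 were higher in the knockout, as were 49.8% of all genes, and the posterior median difference was 0.08. The median was -0.09 for the 14 central members, with 3 higher, and 0.01 for the 7 anterior members, with 4 higher. By cluster it was -0.03 for Hoxa, -0.04 for Hoxb, -0.01 for Hoxc and 0.09 for Hoxd. Without wild type 1 the central median was 0.09, with 8 of 14 higher, and the Hoxa median 0.13, with 9 of 10 higher, and the Hoxb median was 0.10. Without that array the posterior median was 0.14, with 12 of 16 higher, and the anterior median -0.01, with 3 of 7 higher. Over all genes the median was then 0.01, with 53.1% higher. The Hoxc median was then -0.05, with 2 of 9 higher, and the Hoxd median 0.01, with 5 of 9 higher. The spread of such medians between replicate arrays was 0.09 to 0.25 (SD). On all 6 arrays each median was within its own spread except that of Hoxd. Without wild type 1, against the same spreads, each was within its own except the posterior one, whose spread was 0.13. All posterior members but Hoxd9 lie under the filter line. Of all genes under that line, 51% were highest on knockout 1 and 40.6% lowest on wild type 2 among these 5 arrays. The posterior median was not set against genes of like signal, so it is not particular to posterior Hox genes on these values.

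Hox proteins bind DNA with partners of the Pbx and Meis families. Of 9 cofactor genes 8 were on the array under a single symbol, and 0 of 7 tested passed in limma, with 0 at an unadjusted p under 0.05. Meis1 gave 8.98, 8.78 and 8.72 on the knockout arrays, and 7.83, 9.02 and 8.84 on the wild-type arrays. Pbx3 was 7.57 to 8.22 on the knockout arrays and 6.96, 7.67 and 7.97 on the wild-type arrays, and Pbx2 6.61 to 6.70 on the knockout arrays and 7.53, 6.69 and 6.54 on the wild-type arrays. Wild type 1 was the low array for Meis1 and Pbx3 and the high array for Pbx2, each by more than 1.5-fold. Polycomb subunits and trithorax proteins, which keep Hox genes off or on, showed no such array, the latter listed together with the demethylases Kdm6a and Kdm6b. On wild type 1, 0 of 18 and 0 of 11 genes of these lists were more than 1.5-fold beyond all others. Between genotypes 0 of 17 and 0 of 11 tested passed in limma, with 0 at an unadjusted p under 0.05. Mir615, which lies inside Hoxc5, gave 7.38, 6.99 and 6.74 on the knockout arrays, and 7.19, 6.82 and 7.25 on the wild-type arrays, so that the low Hoxc5 array was not its low array. The Mir10 and Mir196 probe sets lay between 2.34 and 4.65 on all arrays, and none of 10 noncoding genes was more than 1.5-fold beyond all others on wild type 1.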

How the data were processed

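RNA from 6 samples was measured on one-colour Affymetrix arrays. The deposited table holds log2 signals, 1 column per sample, for 35399 probe sets; the log base was read from the range, 1.55 to 13.96. MAS5 is named in the submitters' processing notes, with no role, and the authors' background correction, summary and scaling were not given in these sources. Values were used as deposited. The platform annotation names 23410 probe sets, 21789 with 1 symbol, which were used; with several probe sets, a gene took the one of highest mean signal. The genotypes were tested with limma 3.58.1 under R 4.3.3, moderating along signal and adjusting by Benjamini-Hochberg over the 13073 probe sets left after the lowest 40% were removed. Members under that line were taken from a fit without the filter.

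Values on every array are given for members beyond 2-fold (or, as an alternative, 1.5-fold) of all other arrays on 1 array, members whose groups did not overlap, and the 5 with the lowest p, and list genes followed the same rule. Hoxc8 and other steady members were named after their values were seen. The members, tests and lists were chosen with earlier results of these data known, and the list of noncoding cluster genes was written after the table was seen. No column lacked a sample. The labels do not say that replicates are separate animals, so p-values cover only the spread among these samples, which may be technical. In simulated data with 13073 probe sets and 200 changed, the test recovered 43% of 2-fold and 76% of 4-fold changes and called 4 unchanged ones. The simulated noise was independent between probe sets and arrays, whereas here wild type 1 departed in many genes at once. These shares therefore need not hold for the present data.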

Additional observations from a re-analysis of the deposited data

How the results depend on the processing

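No Hox gene and no probe set passed under any alternative, which were a stricter filter (60%) or none, limma with no trend or robust, probe sets averaged, pseudocounts of 1 and 64, arrays centred on their medians or quantile normalized, a replicate block, and each array left out. Unadjusted p-values under 0.05 numbered 28 to 273, against 83. Of 177 runs for 12 named members, 7 turned sign, all without wild type 1, to 0.38 for Hoxa5, 0.22 for Hoxa7, 0.25 for Hoxb6, 0.16 for Hoxb7, -0.20 for Hoxc4, -0.33 for Hoxc5 and -0.36 for Hoxd8. These 7 were named because wild type 1 lay beyond every other array, so the direction of that move was fixed by the choice. Leaving out 1 array in turn gave -0.77 to 0.38 for Hoxa5, -0.45 to 0.22 for Hoxa7, -0.47 to 0.25 for Hoxb6, -0.35 to 0.16 for Hoxb7, -0.20 to 0.41 for Hoxc4, -0.33 to 0.45 for Hoxc5 and -0.36 to 0.54 for Hoxd8. The 2 members with groups apart became 5 under quantile normalization (13.5%, against 6.83% of all genes), and 3 to 9 when 1 array was left out: 4 without wild type 1 (10.8%, against 13.8%), 4 without knockout 2 (10.8%, against 12.5%), 9 without knockout 3 (24.3%, against 20.4%) and 5 without wild type 3 (13.5%, against 18.8%). The anterior median ran from -0.12 without knockout 1 to 0.068 without wild type 3, and the Hoxd median from 0.0089 without wild type 1 to 0.19 without knockout 2. On wild type 1, the count above 2-fold was 2 under median centring, and at 1.5-fold 4 were above and 3 below; with a pseudocount of 64 these were 1 and 0, since it shrinks differences of dim genes. Under each scaling all 7 stayed at their end. Deviations of same-numbered samples from their group means had an r of 0.09, -0.24 and 0.21, and differently numbered ones -0.34 to 0.42. These deviations sum to 0 within a group and carry the large departure of wild type 1. They cannot settle whether the replicate numbers pair the samples. A replicate block left 0 passing (68 at an unadjusted p under 0.05).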

Other observations

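Some other regional regulators stood apart on the array labelled wild type 1. Tbx15, a T-box factor of muscle and fat progenitors, gave 8.73, 8.13 and 9.02 on the knockout arrays, and 4.37, 9.18 and 9.40 on the wild-type arrays. Pax9, a factor of the pharyngeal pouches and the oesophagus, gave 8.92, 8.55 and 9.16 on the knockout arrays, and 5.48, 9.39 and 8.82 on the wild-type arrays. Pitx1, known for hindlimb identity, was 6.78 on wild type 1 and 9.35 to 9.53 elsewhere, Tbx3 was 6.80 there and 8.45 to 9.09 elsewhere, and Isl1 was 6.30 there and 7.54 to 7.97 elsewhere. Tbx18 went up there, at 7.53 against 5.50 to 6.05. Of 25 such genes on the array, 5 were over 2-fold below and 2 over 2-fold above all other arrays on wild type 1, and 0 of 17 tested passed between genotypes in limma, with 0 at an unadjusted p under 0.05.

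In the retinoic acid pathway, which switches Hox genes on in embryos, the binding protein gene Crabp2 was 9.89 to 10.60 on the knockout arrays and 5.66, 10.58 and 10.25 on the wild-type arrays. Aldh1a1, a retinoic acid synthesising enzyme, was 10.83 to 11.18 on the knockout arrays and 8.24, 10.62 and 10.84 on the wild-type arrays. The list of 21 genes also held other Hox inducers, the Cdx genes and Gdf11. Crabp2 and Aldh1a1 were the 2 of these 21 over 2-fold below all others on wild type 1. Of the list, 0 of 17 tested passed in limma, with 0 at an unadjusted p under 0.05. Of 13 genes flanking the clusters, wild type 1 was the highest array by over 2-fold for 3 and the lowest for 1. Snx10 and Hibadh beside Hoxa gave 9.81 and 11.37 on wild type 1, against 6.25 to 6.54 and 9.34 to 10.11 elsewhere. Beside Hoxd, Mtx2 gave 8.98 there, against 7.47 to 7.71 elsewhere, and Lnpk 6.57, against 7.71 to 8.41. The Evx1 and Evx2 genes, which end the Hoxa and Hoxd clusters, were 4.68 and 6.28 there, inside their range elsewhere.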
